A study of Mus musculus with 6 samples.

Results

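The genes of cholesterol and fatty acid synthesis were compared between WT and hnRNPL-deficient mouse B cells early after activation. The set held 34 genes, chosen by name as genes of sterol and fatty acid synthesis under the control of sterol regulatory element-binding proteins (SREBPs), out of 55421 genes in the expression table. All 34 passed the filter on low values, as did 17640 genes in all. B cells from spleen were cultured for 24 h with IL-4 at 5 ng/ml plus LPS at 5 μg/ml, and each mouse gave 1 library of polyadenylated RNA. The WT group was CD21-cre (3 mice) and the hnRNPL-deficient group was hnRNPL F/F CD21-cre (3 mice), in which both copies of *Hnrnpl*, the gene of the RNA-binding protein hnRNPL, can be excised by the recombinase. Both groups carried the cre transgene and, by the methods of the study, a Rosa mT/mG reporter, and GFP+ cells were sorted, that is, cells in which cre had been active. CD21-cre acts from the mature B cell stage, so the deletion is made in peripheral B cells, and by the same methods mice of both sexes were used.

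Cells make cholesterol from acetyl-CoA by way of mevalonate, isoprenoid diphosphates, squalene and lanosterol, and make fatty acids from the same precursor through malonyl-CoA. SREBP transcription factors are held in the endoplasmic reticulum with their escort SCAP while INSIG proteins and sterols are present. When sterols run low, they move to the Golgi, are cut free and turn on the genes of both pathways. Lymphocytes that leave rest and start to grow draw on these pathways for new membrane.

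Values are normalized counts, that is, reads per gene divided by a size factor of each library. The libraries held 40395186 to 75180749 reads on genes. *Hnrnpl* had 24371, 25580 and 24174 normalized counts in WT libraries 1 to 3 and 2178, 1519 and 1297 in the hnRNPL-deficient libraries, or 6.74% of WT (log2 fold change -3.93, SE 0.173, adjusted p = 2.23e-05 from limma). *Xist*, which is transcribed from the inactive X chromosome of female cells, stood at 98507 and 98219 normalized counts in WT library 3 and hnRNPL-deficient library 2 and between 2.32 and 7.21 in the other 4, so each group held 1 library of this kind. B cell markers were abundant in every library, with *Cd79a* between 17288 and 24298 normalized counts. The 8 T cell markers summed to 923 to 1034 normalized counts in WT and 659 to 887 in hnRNPL-deficient libraries, most of it *Lck* (892, 914 and 1006 against 767, 855 and 615, log2 fold change -0.34, adjusted p = 0.181 from limma). *Trac* had 13.9 to 18.2 and 21.6 to 32.9 (0.64, adjusted p = 0.256 from limma), and the other 6, *Cd3e* and *Cd4* among them, had no more than 10.4 in any library. The 8 myeloid markers summed to 260.0 to 331 in WT and 1239 to 1384 in hnRNPL-deficient libraries, nearly all of it *Adgre1* (236, 282 and 315 against 1217, 1337 and 1369), while *Lyz2*, *Cd14*, *S100a8* and *S100a9* had between 0 and 2.02 normalized counts in every library. *Adgre1* was called higher with and without each library (log2 fold change of 2.13 to 2.34 and adjusted p of 3.16e-04 to 0.00136 from limma with 1 library left out). The 5 NK cell markers summed to 26.8 to 33.7 in WT and 46.4 to 73.9 in hnRNPL-deficient libraries, the 6 red cell markers to 17.6 to 38.3 and 55.0 to 84.8, and the 6 plasma cell markers to 33957 to 39571 and 33298 to 36361. All 5 tested plasma cell markers had a lower mean in hnRNPL-deficient libraries, as 52.7% of all tested genes did, with a median log2 fold change of -0.06. Among them *Jchain* (117, 109 and 26.0 against 23.4, 7.07 and 13.7) was called lower (-2.31, adjusted p = 0.0509 from limma). *Jchain* did not pass without WT library 1 (0.132) or 2 (0.150), nor without hnRNPL-deficient library 2 (0.126) or 3 (0.111). Among red cell markers *Hbb-bt* was called higher with and without each library (log2 fold change of 1.48 to 1.99 with 1 library left out). *Prf1*, an NK cell marker, was called higher with all libraries (0.89), but with 1 left out it passed only without hnRNPL-deficient library 2. The part of these differences in the results below was not tested.

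The genes of lipid synthesis were mostly lower in hnRNPL-deficient cells, by modest amounts. In limma on log2(normalized count + 1), a gene passed the test at a Benjamini-Hochberg adjusted p under 0.1 over all tested genes and was called when its change was also at least 1.5-fold. Of the 34 genes, 14 were lower and passed (41.2%, against 7.97% of all tested genes), and 0 were higher and passed (10.0% of all tested genes were). At an unadjusted p under 0.05 there were 21 genes in both directions together, against 4830 of all 17640 tested genes. With the minimum fold, 3 genes were called lower (8.82%, against 4.08% of all tested genes), namely *Acat2*, *Fasn* and *Fads2*. With edgeR and with DESeq2 on 5 libraries, 5 were called lower, against 707 of 18455 genes by edgeR and 746 of 30859 by DESeq2. None was called higher, by limma (0 of 34, against 7.28% of all tested genes), edgeR (against 1072 of 18455) or DESeq2 (against 1192 of 30859). The mean was lower in hnRNPL-deficient libraries for 27 of 34 genes (79.4%, against 52.7% of all tested genes). All 3 hnRNPL-deficient libraries lay below all 3 WT libraries for 20 genes (58.8%, against 16.3%), all 3 lay above for 1 gene (17.7% of all tested genes did), and the groups overlapped for 13. The median log2 fold change was -0.31 over the 34 genes and -0.03 over all tested genes, and single genes ranged from -0.68 to 0.43. Since RNA was taken from all sorted cells of a mouse together, fewer cells that express a gene and less of its RNA per cell cannot be told apart. The count of 14 rested on all libraries: it was 5 without WT library 2, 8 without WT library 3, 9 without hnRNPL-deficient library 1 or 2, and 11 without WT library 1 or hnRNPL-deficient library 3. The share of all tested genes that were lower and passed fell too, from 7.97% to 3.79% without WT library 2 or 3. Without each of the other libraries it was 5.54% to 5.99%. The count of 3 became 5 without WT library 3, while the count called lower over all tested genes went from 719 to 478.

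**Figure D1:**
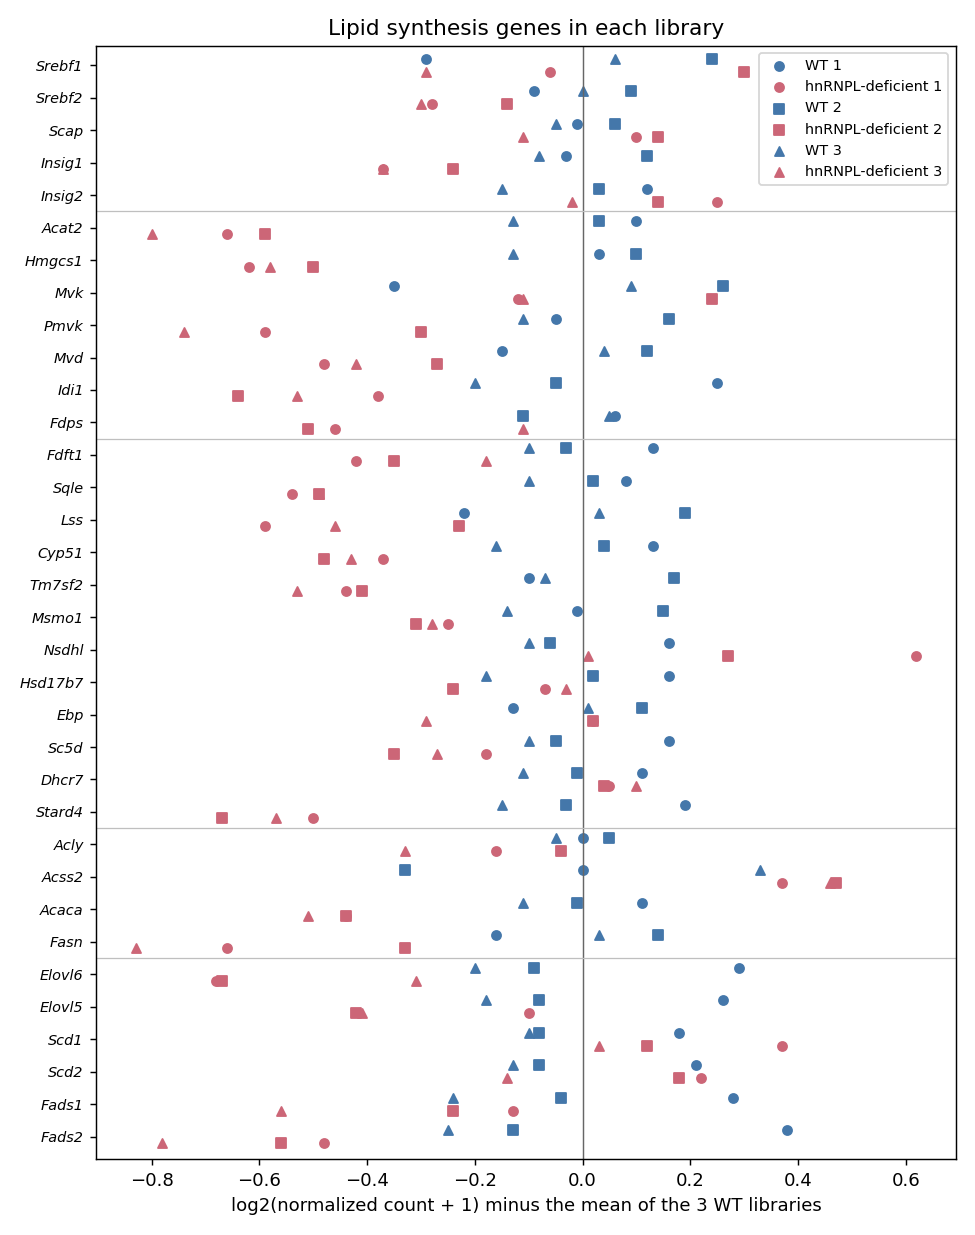
Each point is the log2(normalized count + 1) of 1 gene in 1 library minus the mean of the 3 WT libraries (horizontal axis), with genes in pathway order from top to bottom, WT in blue and hnRNPL-deficient in red. For 20 of the 34 genes the red points all lie to the left of the blue ones, and for *Acss2* all lie to the right.

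**Figure D2:**
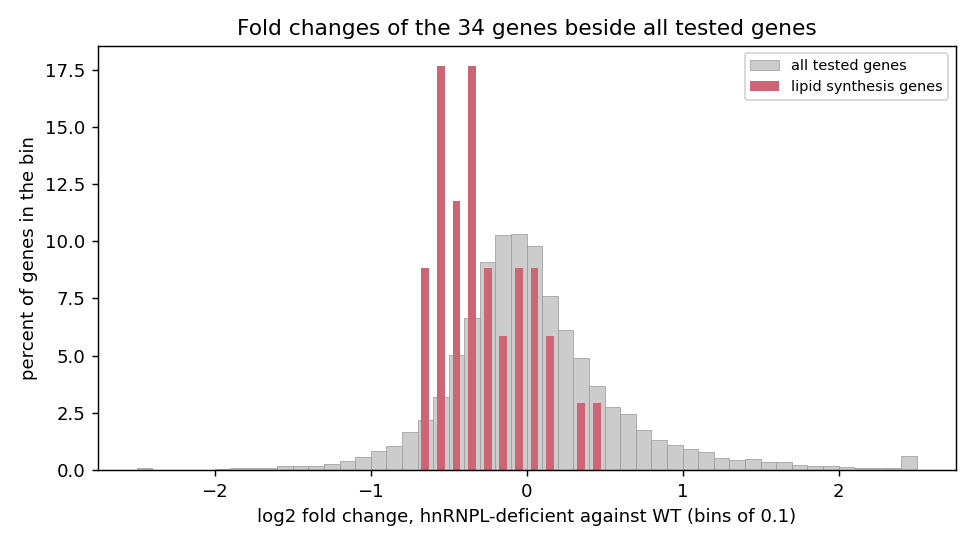
Percent of genes in each bin of 0.1 in log2 fold change (hnRNPL-deficient against WT) for all 17640 tested genes (grey) and the 34 lipid synthesis genes (red), with changes beyond the axis collected in the outermost bins. The red bars are centred to the left of the grey ones, with medians of -0.31 and -0.03.

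The regulators of the pathway came first. *Srebf1*, which encodes the SREBP that favours fatty acid genes, had 2436, 3517 and 3110 normalized counts in WT libraries 1 to 3 and 2861, 3671 and 2442 in hnRNPL-deficient libraries 1 to 3. The groups overlapped fully, and the 95% interval of the log2 fold change ran from -0.43 to 0.39. *Srebf2*, which encodes the SREBP that favours sterol genes, had 22324, 25169 and 23763 in WT and 19480, 21514 and 19233 in hnRNPL-deficient libraries. The groups did not overlap, but the log2 fold change of -0.24 (SE 0.0970, adjusted p = 0.148 from limma) missed the threshold. *Scap*, the escort of the SREBPs, had 5379, 5645 and 5231 in WT and 5787, 5956 and 5017 in hnRNPL-deficient libraries, which overlapped (95% interval of the log2 fold change -0.19 to 0.27).

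The INSIG genes, whose proteins retain the SREBPs, differed from each other in this comparison. *Insig1*, itself a classical SREBP target, had 5645, 6259 and 5462 normalized counts in WT and 4474, 4899 and 4474 in hnRNPL-deficient libraries. It fell by 20.3% with no overlap between the groups (log2 fold change -0.33, SE 0.0968, adjusted p = 0.0652 from limma). It also passed without WT library 1, but not without each of the other 5 libraries (adjusted p of 0.100 to 0.223). *Insig2*, whose transcription does not depend on SREBPs to the same degree, had 648, 609 and 537 in WT and 708, 658 and 587 in hnRNPL-deficient libraries, and these overlapped (95% interval -0.20 to 0.44). The ratio of *Insig1* to *Insig2* within a library was 8.72, 10.3 and 10.2 in WT and 6.32, 7.44 and 7.63 in hnRNPL-deficient libraries. The highest hnRNPL-deficient ratio lay under the lowest WT ratio. This was 1 of 7 ratios formed after the values of the genes were seen. In 6 of the 7 all hnRNPL-deficient ratios lay under all WT ratios, each with p = 0.100 in a two-sided exact permutation test, the smallest that 3 against 3 allows, and 0.117 adjusted over the 7. The ratio of *Srebf2* to *Srebf1* overlapped (9.16, 7.16 and 7.64 against 6.81, 5.86 and 7.87, exact permutation p = 0.300). None passed.

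The 7 genes from acetyl-CoA to farnesyl diphosphate had the lowest median of the role groups, a log2 fold change of -0.52, and 5 of them were lower and passed. *Acat2* (chromosome 17, 12942890 to 12960747 in GRCm38, minus strand), the cytosolic thiolase that joins acetyl-CoA units to acetoacetyl-CoA, had 2890, 2748 and 2469 normalized counts in WT and 1702, 1789 and 1550 in hnRNPL-deficient libraries. Every hnRNPL-deficient library was well under every WT library. *Acat2* fell by 37.8% (log2 fold change -0.68, SE 0.109, adjusted p = 0.00688 from limma), the largest decrease of the 34 genes, and was called without each library in turn (-0.75 to -0.63). *Hmgcs1* (chromosome 13, 119690379 to 119708260, plus strand), which encodes the cytosolic HMG-CoA synthase of the next step, had 13073, 13676 and 11702 in WT and 8332, 9075 and 8539 in hnRNPL-deficient libraries. The groups lay far apart again. *Hmgcs1* fell by 32.5% (-0.57, SE 0.0967, adjusted p = 0.00893 from limma), just under the minimum fold, and passed without each library in turn; it was called without WT library 3 (-0.63) or hnRNPL-deficient library 2 (-0.60).

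The next enzymes phosphorylate mevalonate and turn it into isoprenoid units. *Mvk*, mevalonate kinase, ranged from 514 to 782 normalized counts in WT and from 599.5 to 769 in hnRNPL-deficient libraries, with means of 663 ± 136 and 658 ± 96.7 (SD, n = 3) and a 95% interval of the log2 fold change from -0.43 to 0.43. It was the only gene of the 7 whose groups overlapped. *Pmvk*, the kinase of the following step, had 491, 567 and 473 in WT and 338, 414 and 304 in hnRNPL-deficient libraries. It fell by 31.0% (-0.54, SE 0.166, adjusted p = 0.0726 from limma), but passed only without hnRNPL-deficient library 2 and not without each of the other 5 libraries (adjusted p of 0.115 to 0.216). *Mvd*, the decarboxylase that yields isopentenyl diphosphate, had 1907, 2298 and 2174 in WT and 1517, 1759 and 1579 in hnRNPL-deficient libraries. It fell by 23.9% (-0.39, SE 0.116, adjusted p = 0.0637 from limma) and passed only without WT library 1 or without hnRNPL-deficient library 2. Without WT library 2 its adjusted p was 0.207, without WT library 3 0.188, and without the hnRNPL-deficient libraries numbered 1 and 3 it was 0.167 and 0.126 (limma).

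*Idi1* (chromosome 13, 8885501 to 8892451, plus strand), the isomerase that makes dimethylallyl diphosphate, had the highest level per length of the sterol branch, with 44262, 35949 and 32550 normalized counts in WT and 28681, 23888 and 25727 in hnRNPL-deficient libraries. The groups did not overlap, although WT library 1 stood well above the other 2. *Idi1* fell by 30.6% (-0.52, SE 0.135, adjusted p = 0.0424 from limma), and did not pass without WT library 2 (0.103) or hnRNPL-deficient library 2 (0.125). *Fdps*, which assembles farnesyl diphosphate, had 901, 801 and 892 in WT and 628, 605 and 800.5 in hnRNPL-deficient libraries. WT library 2 and hnRNPL-deficient library 3 were nearly level, and the log2 fold change of -0.36 did not pass (adjusted p = 0.152 from limma).

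Several of these transcripts share sequence with other genes, with which their reads could be confused. Of the windows of 100 bases taken every 10 bases along the annotated transcripts, 18 of the 34 genes shared none with another gene, 10 shared under 10% and 6 shared more, namely *Fdps* (43.1%), *Idi1* (37.4%), *Acat2* (35.4%), *Acaca* (29.2%), *Fdft1* (21.9%) and *Hmgcs1* (12.9%). The copies with most shared windows at another place in the genome were *Acat3* for *Acat2*, *Gm13502* for *Idi1*, *Gm5182* for *Acaca* and *Gm3571* for *Fdps*. *Acat3*, next to *Acat2* on chromosome 17, had 866, 725 and 698 normalized counts in WT and 504, 453 and 524 in hnRNPL-deficient libraries. *Acat3* was also lower and passed (log2 fold change -0.62, adjusted p = 0.0262 from limma), and the sum of both was 3465 ± 294 against 2174 ± 88.7 (SD, n = 3), with no overlap. *Gm13502* had 12988, 7939 and 7229 in WT and 7251, 4688 and 6526 in hnRNPL-deficient libraries, and its sum with *Idi1* was 46972 ± 9135 against 32254 ± 3678, again with no overlap. *Gm5182* was lower and passed (-0.51, adjusted p = 0.0830 from limma), and its sum with *Acaca* was 16977 ± 1511 against 12262 ± 257, also with no overlap. The sum of *Fdps* and *Gm3571* overlapped between the groups (1598 ± 166 against 1245 ± 169.9). Most shared windows of *Fdps*, *Fdft1* and *Hmgcs1* lay instead in a gene that overlaps them, namely *Gm43738*, *Ctsb* and *Gm48342*. *Ctsb* and *Gm48342* lie on the strand opposite to *Fdft1* and *Hmgcs1*. By the methods of the study reads were counted by strand, which keeps the reads of these overlapping pairs apart. For the other shared windows, how the reads divided between genes was not tested. The values of the genes that hold those windows are uncertain to that extent.

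The 12 genes from squalene onwards had a median log2 fold change of -0.30, and 4 were lower and passed. *Sqle*, squalene epoxidase, a rate-limiting enzyme of the pathway, had 10947, 10547 and 9703 normalized counts in WT and 7167, 7412 and 7381 in hnRNPL-deficient libraries. The hnRNPL-deficient libraries were almost level with each other and clearly under WT. *Sqle* fell by 29.6% (-0.50, SE 0.0893, adjusted p = 0.0102 from limma) and passed without each library in turn. *Stard4*, a soluble carrier that moves cholesterol between membranes, had 7073, 6059 and 5577 in WT and 4381, 3887 and 4189 in hnRNPL-deficient libraries. It fell by 33.4% (-0.58, SE 0.113, adjusted p = 0.0151 from limma), the value nearest to the minimum fold without reaching it, and also passed without each library; without WT library 2 or 3, or hnRNPL-deficient library 1 or 3, it was called (-0.66 to -0.59).

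*Lss*, which closes the sterol rings to give lanosterol, had 3258, 4311 and 3854 normalized counts in WT and 2518, 3219 and 2758 in hnRNPL-deficient libraries. The lowest WT and the highest hnRNPL-deficient library nearly met. *Lss* fell by 25.6% (-0.43, SE 0.137, adjusted p = 0.0837 from limma), and passed only without WT library 1 or without hnRNPL-deficient library 2. Leaving out WT library 2 or 3 gave an adjusted p of 0.237 or 0.208, with 0.203 and 0.165 without the hnRNPL-deficient libraries numbered 1 and 3 (limma). *Cyp51*, which removes a methyl group from lanosterol, had 12204, 11470 and 9967 in WT and 8653, 7992 and 8288 in hnRNPL-deficient libraries. It fell by 25.9% (-0.43, SE 0.103, adjusted p = 0.0333 from limma), and did not pass without WT library 2 (0.117) or hnRNPL-deficient library 2 (0.101).

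For 4 more sterol genes the groups did not overlap but the test was not passed. *Fdft1*, squalene synthase, had 3494, 3129 and 2989 normalized counts in WT and 2394, 2510 and 2829 in hnRNPL-deficient libraries (-0.31, adjusted p = 0.106 from limma). *Tm7sf2*, a sterol reductase with the lowest level per length of the sterol genes, had 198, 239 and 203 in WT and 157, 159.5 and 147 in hnRNPL-deficient libraries (-0.46, adjusted p = 0.137 from limma). In both, every hnRNPL-deficient library was under the lowest WT library. *Msmo1*, a sterol methyl oxidase, had 5247, 5866 and 4776 in WT and 4452, 4264 and 4348 in hnRNPL-deficient libraries (-0.28, adjusted p = 0.122 from limma). *Sc5d*, a sterol desaturase, had 8218, 7103 and 6863 in WT and 6498, 5803 and 6132 in hnRNPL-deficient libraries (-0.26, adjusted p = 0.141 from limma).

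The other 4 sterol genes, all in the late steps, overlapped between the groups. Their log2 fold changes ran from -0.11 for *Hsd17b7*, a reductase of sterol demethylation, to 0.30 for *Nsdhl*, a dehydrogenase of the same step. *Nsdhl* and *Ebp*, a sterol isomerase, lie on the X chromosome. *Nsdhl* ranged from 2083 to 2499 normalized counts in WT and from 2251 to 3446 in hnRNPL-deficient libraries (adjusted p = 0.268 from limma). *Dhcr7*, the reductase of the last step to cholesterol, ranged from 2995 to 3483 in WT and from 3325 to 3465 in hnRNPL-deficient libraries, so all 3 hnRNPL-deficient values fell inside the WT range (95% interval of the log2 fold change -0.15 to 0.29). The ratio of *Sqle* to *Dhcr7* within a library, another of the 7, was 3.14, 3.29 and 3.24 in WT and 2.15, 2.23 and 2.13 in hnRNPL-deficient libraries.

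**Figure D3:**
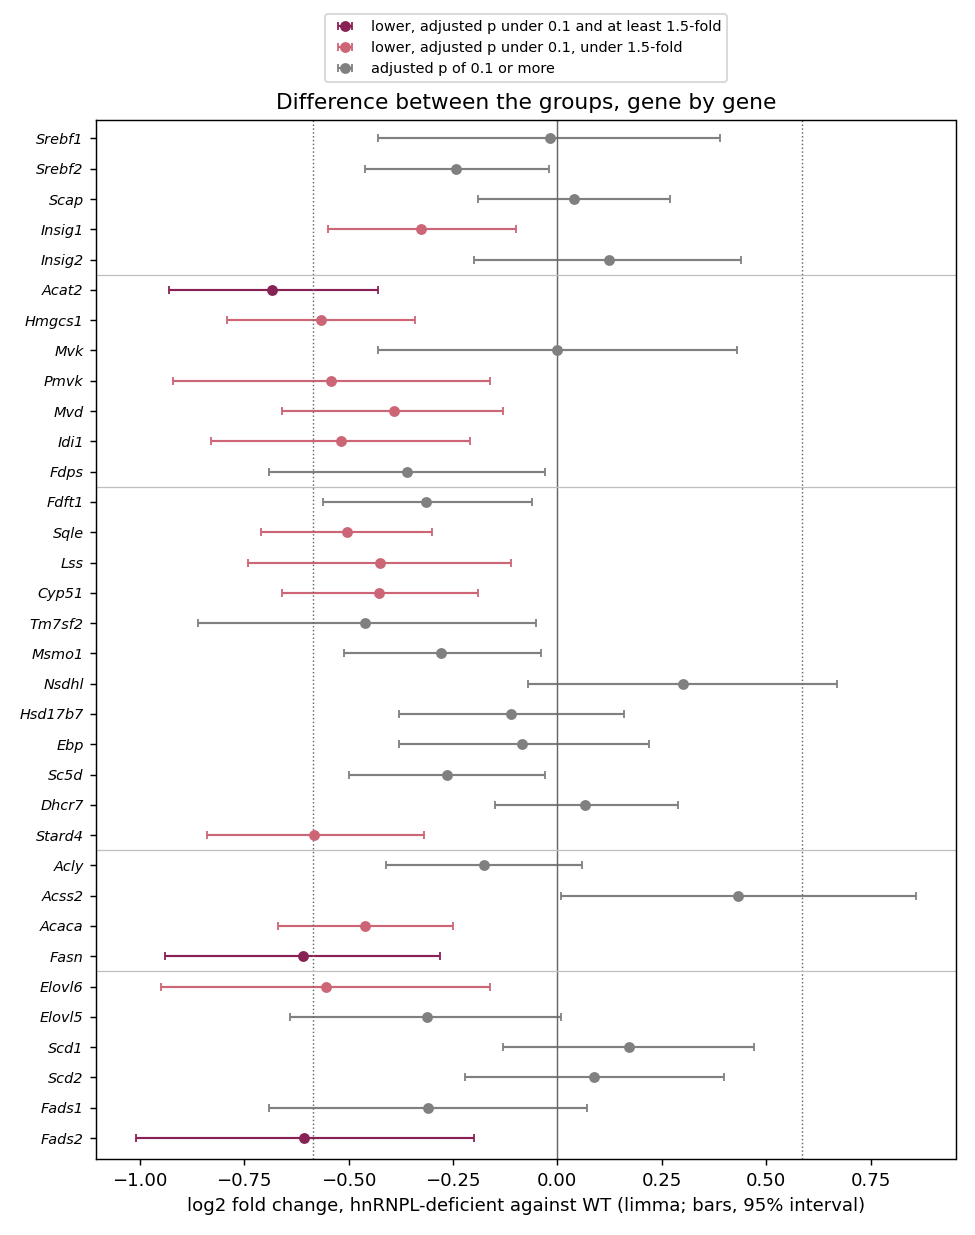
Log2 fold change of each of the 34 genes, hnRNPL-deficient against WT, with its 95% interval from limma and dotted lines at 1.5-fold. The 3 called genes are dark red, the other 11 that passed are light red, and *Srebf1*, *Mvk*, *Dhcr7*, *Scd1* and *Scd2* are among those whose interval spans 0.

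In the fatty acid branch, 2 of the 4 genes of synthesis proper were lower and passed. *Acly*, which makes cytosolic acetyl-CoA from citrate, ranged from 19840 to 21327 normalized counts in WT and from 16378 to 19977 in hnRNPL-deficient libraries, and the groups overlapped (-0.18, adjusted p = 0.310 from limma). *Acaca*, acetyl-CoA carboxylase, which commits acetyl-CoA to fatty acids, had 16232, 14898 and 13941 in WT and 11088, 11079 and 10543 in hnRNPL-deficient libraries. The groups did not overlap, and the hnRNPL-deficient libraries were close together. *Acaca* fell by 27.4% (-0.46, SE 0.0940, adjusted p = 0.0183 from limma) and passed without each library in turn. *Fasn* (chromosome 11, 120805846 to 120824547, minus strand), the fatty acid synthase, had 37510, 46199 and 42838 in WT and 26536, 33322 and 23618 in hnRNPL-deficient libraries. It varied among mice of each group, yet no hnRNPL-deficient library reached the lowest WT library. From a mean of 42182 ± 4381 in WT to 27825 ± 4979 (SD, n = 3), *Fasn* fell and was called (log2 fold change -0.61, SE 0.145, adjusted p = 0.0321 from limma). It did not pass without WT library 2 (0.111) or WT library 3 (0.110), and passed under the minimum fold without hnRNPL-deficient library 1 (-0.58) or 3 (-0.50).

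*Acss2*, which makes cytosolic acetyl-CoA from acetate, was the only gene of the 34 with all hnRNPL-deficient libraries above WT. It had 345, 273 and 431 normalized counts in WT and 444, 477 and 473 in hnRNPL-deficient libraries, and the highest WT library lay just under the lowest hnRNPL-deficient one. The log2 fold change of 0.43 (SE 0.186) did not pass (adjusted p = 0.175 from limma).

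Of the 6 genes that lengthen or desaturate fatty acids, 2 were lower and passed. *Elovl6*, which elongates saturated fatty acids, had 1006, 777 and 718 normalized counts in WT and 515, 518 and 665 in hnRNPL-deficient libraries. It fell by 32.1% (-0.55, SE 0.173, adjusted p = 0.0766 from limma), but passed only without hnRNPL-deficient library 3 and not without each of the other 5 libraries (adjusted p of 0.114 to 0.184). *Fads2* (chromosome 19, 10062765 to 10101746, minus strand), the desaturase that opens the synthesis of highly unsaturated fatty acids, had 1798, 1268 and 1162 in WT and 992, 936 and 806 in hnRNPL-deficient libraries. WT library 1 stood far above the other 2 WT libraries. *Fads2* fell by 35.3% (-0.61, SE 0.177, adjusted p = 0.0611 from limma), and passed only without WT library 3 or without hnRNPL-deficient library 1. Leaving out WT library 1 or 2 gave an adjusted p of 0.109 or 0.106, and leaving out the hnRNPL-deficient libraries numbered 2 and 3 gave 0.116 and 0.152 (limma). Without WT library 1 its log2 fold change was -0.42.

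The remaining 4 genes of this group overlapped between the groups. *Elovl5*, an elongase of unsaturated fatty acids, ranged from 4983 to 6761 normalized counts in WT and from 4235 to 5259 in hnRNPL-deficient libraries (-0.31, adjusted p = 0.198 from limma). *Fads1*, the partner desaturase of *Fads2*, ranged from 1555 to 2233 in WT and from 1246 to 1685 in hnRNPL-deficient libraries (-0.31, adjusted p = 0.269 from limma). The stearoyl-CoA desaturases, which make monounsaturated fatty acids, did not follow *Fasn*. *Scd1* ranged from 63628 to 76962 in WT and from 69330 to 87703 in hnRNPL-deficient libraries, and its log2 fold change of 0.17 had a 95% interval of -0.13 to 0.47. *Scd2* ranged from 17888 to 22632 and from 17742 to 22830 (95% interval -0.22 to 0.40). The ratio of *Fasn* to *Scd1* within a library, also 1 of the 7, was 0.487, 0.718 and 0.673 in WT and 0.303, 0.451 and 0.341 in hnRNPL-deficient libraries, with no overlap.

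The levels of the 34 genes spanned a wide range when taken per length. Per kb of annotated exon, *Scd1* was the highest in WT at 13962 normalized counts, followed by *Idi1* at 10724, *Acly* at 3895, *Fasn* at 3853, *Scd2* at 3600 and *Srebf2* at 3306. *Acss2* (34.4), *Tm7sf2* (48.4) and *Elovl6* (129.7) were the lowest on that scale. *Srebf2* stood above *Srebf1* (536) and *Insig1* (1872) above *Insig2* (172). In hnRNPL-deficient cells *Scd1* (15740) and *Idi1* (7446) again led, and *Fasn* was at 2542 per kb, under *Scd2* at 3827.

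**Figure D4:**
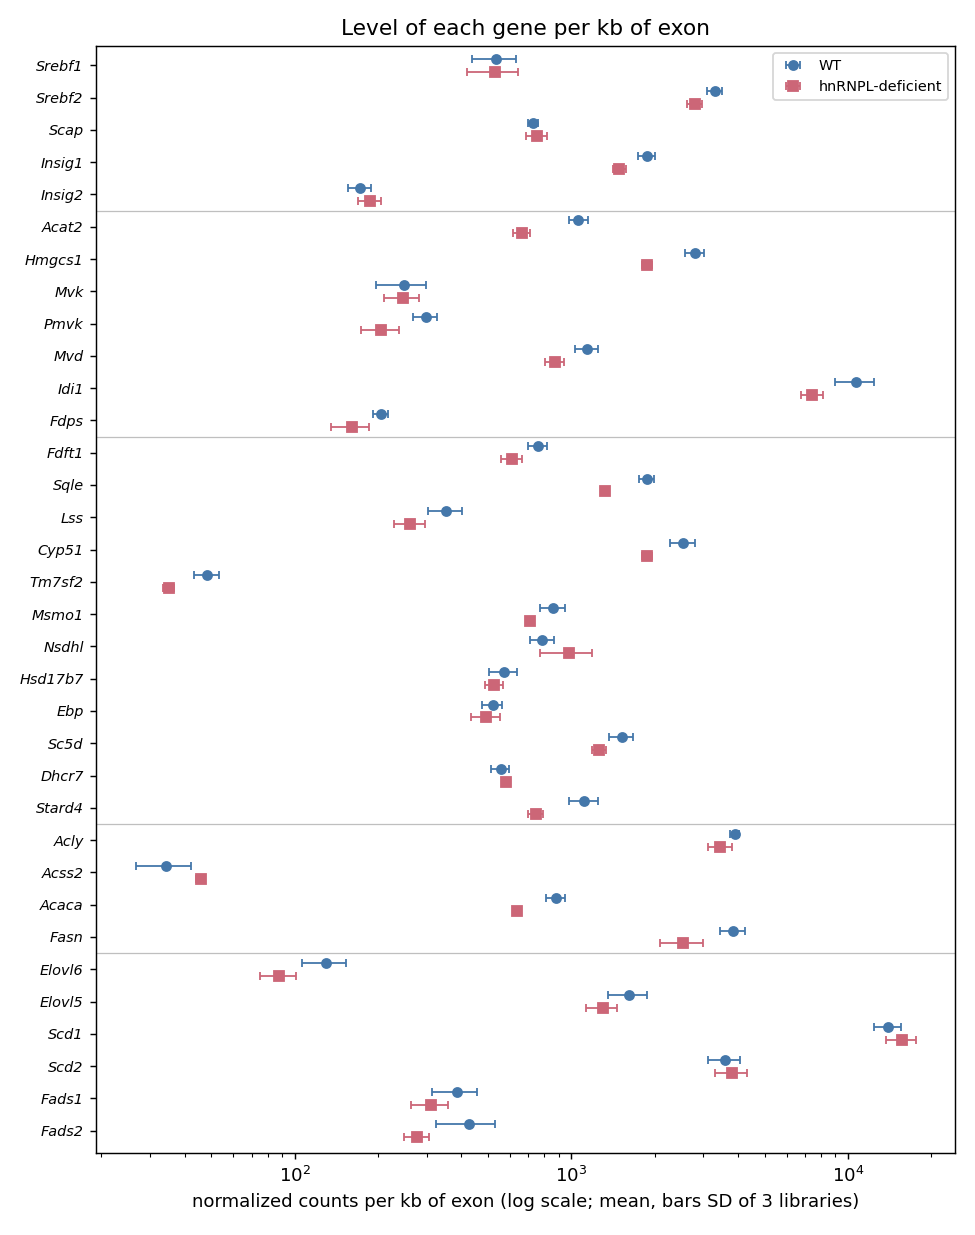
Normalized counts per kb of annotated exon for each gene on a log scale, as the mean of 3 libraries with the SD, in WT (blue circles) and hnRNPL-deficient cells (red squares). Levels run from 34.4 for *Acss2* to 13962 for *Scd1* in WT, and *Idi1* lies far above the other sterol genes in both groups.

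Summed over genes, the 34 took 0.550% ± 0.0113 of a WT library's normalized counts and 0.490% ± 0.0161 of an hnRNPL-deficient library's (SD, n = 3). *Scd1* and *Scd2* alone took 0.147% ± 0.0114 and 0.170% ± 0.0154, and the other genes 0.403% ± 0.0114 and 0.321% ± 0.00848. The share of the mevalonate and isoprenoid genes was 0.0956% ± 0.00712 in WT and 0.0691% ± 0.00276 in hnRNPL-deficient libraries, without overlap. The shares of the squalene and sterol genes (0.0958% ± 0.00349 and 0.0797% ± 0.00254) and of the fatty acid synthesis genes (0.131% ± 0.00982 and 0.0997% ± 0.0104) did not overlap either. Those of the regulators and of the elongation and desaturation genes did. Within a group, WT library 3 was the lowest of WT for 24 of the 34 genes, WT library 1 the highest for 19, and hnRNPL-deficient library 3 the lowest of its group for 17.

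**Figure D5:**
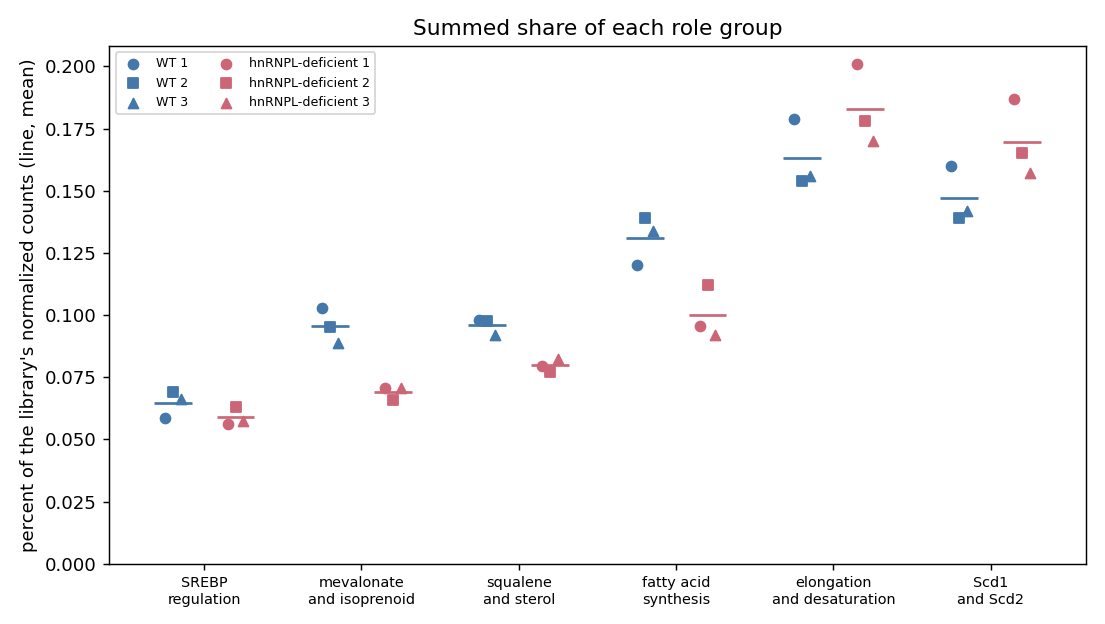
Percent of each library's normalized counts taken by the genes of each role group, 1 point per library with the group mean as a line, WT in blue and hnRNPL-deficient in red. The mevalonate, sterol and fatty acid synthesis groups separate, at means of 0.0956% against 0.0691%, 0.0958% against 0.0797% and 0.131% against 0.0997%, while the elongation and desaturation group, mostly *Scd1* and *Scd2*, overlaps.

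Genes of the same pathways outside the 34 were counted by list. Of 18 tested genes of SREBP processing and sterol sensing, with a median log2 fold change of -0.01, 3 were lower and passed and 3 were higher and passed. Of all tested genes, with a median of -0.03, these were 7.97% and 10.0%. The 3 higher became 1 without WT library 2, WT library 3 or the first hnRNPL-deficient library. Among them *Sar1b*, a GTPase of the vesicles that leave the endoplasmic reticulum, was called lower (log2 fold change -0.76, SE 0.179, adjusted p = 0.0308 from limma), though without WT library 1 its change of -0.57 was under the minimum fold. *Lpin1*, a phosphatidate phosphatase also known to restrain SREBP, was called higher (0.67, SE 0.117, adjusted p = 0.00961 from limma) with and without each library.

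Of 20 other genes of sterol and isoprenoid synthesis, 7 were lower and passed and 1 was higher and passed (7.97% and 10.0% of all tested genes). The median log2 fold change of this list was -0.01, against -0.03 over all tested genes. The 7 became 2 to 4 with each library left out. *Ggps1*, which makes geranylgeranyl diphosphate, had 3558, 3047 and 3106 normalized counts in WT and 1950, 1735 and 2108 in hnRNPL-deficient libraries (-0.75, SE 0.115, adjusted p = 0.00591 from limma), and was called without each library in turn. *Coq2*, which attaches the isoprenoid tail of coenzyme Q, was called higher (0.61, SE 0.127, adjusted p = 0.0192 from limma), and was under the minimum fold when WT library 1 (0.57) or 3 (0.58) was left out, and likewise for hnRNPL-deficient library 2 (0.55).

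Of 16 tested genes of sterol transport, storage and LXR response, 1 was lower and passed and 1 was higher and passed (7.97% and 10.0% of all tested genes). The median log2 fold change of this list was 0.09. The higher gene did not pass without WT library 2 or 3 or the first hnRNPL-deficient library. The lower gene was *Lrp8*, a lipoprotein receptor, which was called (-0.73, SE 0.153, adjusted p = 0.0198 from limma) with and without each library. Of 22 tested genes of other fatty acid synthesis and esterification steps, 3 were lower and passed (0 to 2 with each library left out) and 2 were higher and passed (1 or 2). Again 7.97% and 10.0% of all tested genes were, and the median of this list was -0.10. The higher genes included *Plin2*, a lipid droplet coat protein, which was called higher (0.64, SE 0.203, adjusted p = 0.0813 from limma). *Plin2* did not pass without any 1 of the 6 libraries (adjusted p of 0.139 to 0.188). The 19 genes of fatty acid oxidation had a median log2 fold change of 0.21, against -0.03 over all tested genes. Of the 19, 0 were lower and passed and 5 were higher and passed (7.97% and 10.0% of all tested genes). These 5, named after their values were seen, were *Cpt1a*, *Cpt2*, *Acads*, *Decr1* and *Etfdh*, with log2 fold changes of 0.36 to 0.57. *Acads* did not pass in any fit that left out a library. The count of 5 became 1, *Cpt1a*, when WT library 2 or 3 or the first hnRNPL-deficient library was left out. For each of the other 3 it became 4. Without hnRNPL-deficient library 3 these 4 were *Cpt1a*, *Cpt2*, *Acadvl* and *Hadh*, of which *Acadvl* and *Hadh* were not among the named 5. *Decr1* (adjusted p = 0.107) and *Etfdh* (0.121) did not pass in that fit (limma).

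The bases before the annotated starts of the genes were searched for letters bound by SREBPs and their partners. RefSeq gave 35 windows of 250 bases before a start for 27 of the 34 genes (GRCm38.p6). Both strands were searched. The sterol regulatory element TCACNCCAC was found in 1 of the 35 windows and in 1.05% of all 32851 windows in the genome, and its shorter form CACNCCAC, which lies inside it, in 3 windows, those of *Acat2*, *Hmgcs1* and *Insig1* (5.29% of all windows). The NF-Y box CCAAT was found in 62.9% of the 35 windows and 33.8% of all, the GC box GGGCGG in 71.4% and 32.7%, and the E-box CACGTG in 17.1% and 6.02%. Of the 12 genes with a window that were lower and passed, 8 held a CCAAT and 8 a GC box, and of the other 15 these were 13 and 14. A match is a description of the letters only, since no binding was measured.

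The windows of the genes with the lowest adjusted p in the sterol branch, *Acat2* and *Hmgcs1*, and in the fatty acid branch among called genes, *Fasn*, are shown to let the motifs be read in place, 5′ to 3′ on the strand of the gene, without bases that lie in an annotated exon. Capitals mark the sterol regulatory element, its shorter form, CCAAT and GC boxes, on either strand. For *Hmgcs1* the element starts 137 bases before the start, with CCAAT boxes at 237, 176 and 45 bases and GC boxes at 92 and 24 bases. For *Acat2* the shorter form lies at 181 and 53 bases, with a GC box at 33. For *Fasn* there are CCAAT boxes at 90, 62 and 59 bases, of which the last 2 overlap on opposite strands.
*Hmgcs1*, chr13:119690101-119690350, plus strand: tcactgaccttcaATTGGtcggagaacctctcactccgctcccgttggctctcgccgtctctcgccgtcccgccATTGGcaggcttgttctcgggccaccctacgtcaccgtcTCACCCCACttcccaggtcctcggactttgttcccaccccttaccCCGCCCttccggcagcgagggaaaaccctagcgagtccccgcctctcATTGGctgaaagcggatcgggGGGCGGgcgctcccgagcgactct
*Acat2*, chr17:12960748-12960975, minus strand: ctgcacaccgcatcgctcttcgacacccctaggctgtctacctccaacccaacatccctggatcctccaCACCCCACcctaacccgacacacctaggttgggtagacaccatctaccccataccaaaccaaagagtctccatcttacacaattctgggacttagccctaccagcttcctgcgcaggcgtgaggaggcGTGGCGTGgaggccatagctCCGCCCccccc
*Fasn*, chr11:120824548-120824797, minus strand: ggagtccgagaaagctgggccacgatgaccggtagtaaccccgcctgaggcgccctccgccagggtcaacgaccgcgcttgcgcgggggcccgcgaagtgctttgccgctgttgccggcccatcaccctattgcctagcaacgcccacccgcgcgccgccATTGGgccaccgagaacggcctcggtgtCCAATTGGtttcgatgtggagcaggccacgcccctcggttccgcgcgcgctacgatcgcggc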

How the data were processed

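RNA-seq of activated splenic B cells was analysed for 3 WT and 3 hnRNPL-deficient mice, grouped by the labels. Separate mice are the replicates. According to the submitters' processing notes, reads were trimmed with fastp 0.23.1 and aligned with STAR 2.7.9a to mm10, and counted with featureCounts. The authors divided the counts by DESeq2 (1.38.2) size factors, and deposited the quotients (normalized counts), a signal with decimals. The deposited table also holds the authors' log2 fold changes, test statistics (a score) and p-values, which were not used.

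The main test was limma 3.58.1 (R 4.3.3) with its trend option on log2(normalized count + 1). It covered 17640 genes, those averaging 10 normalized counts or more over the 6 libraries. Fold changes are on that scale, and adding 1 understates those of low genes. Thresholds were a Benjamini-Hochberg adjusted p under 0.1 and, for a call, 1.5-fold. In all 6 libraries values divided by the smallest one gave whole reads within 0.01 reads (100.0% of values). The reads of 5 libraries were used in the edgeR 4.0.16 and DESeq2 1.42.0 tests, which are alternatives. hnRNPL-deficient library 2 was left out of these because its step is close to 1 (1.0096), although its values met the same criterion. Ratios of 2 genes were compared with an exact permutation test over libraries, which cannot go below 0.1 for 3 against 3. Alternatives were other pseudocounts, filters, scalings and thresholds, no trend, the replicate number as a block, a covariate for *Xist*, and each library left out. Coordinates and exon lengths come from GENCODE vM21 (GRCm38), an earlier release than the one used by the authors, which matched 17615 tested genes and all 34 members. Promoter windows come from RefSeq. All 34 genes are named. Values in every library are given for those called, for those whose groups did not overlap and for the regulators. Of other lists, called genes are named, apart from 1 that is not reported here. The genes and lists were chosen with earlier results of these data known. The pairs set in a ratio and the search for shared sequence were added after the values were seen.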

Additional observations from a re-analysis of the deposited data

How the results depend on the processing

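The median log2 fold change of the 34 genes stayed between -0.36 and -0.24 under all alternatives, and no gene was called higher under any of them. The 3 genes called lower became 1 with equal library totals, 5 with edgeR or DESeq2 on 5 libraries, 0 at an adjusted p under 0.05 and 2-fold, 14 with no minimum fold, and 2 to 5 with each library left out. Over all tested genes, 719 of 17640 were called lower, and 602 with equal library totals. These were 707 of 18455 with edgeR, 746 of 30859 with DESeq2, and 478 to 696 of 17640 with each library left out. The 14 genes lower at an adjusted p under 0.1, a count added after seeing the data, became 9 without the mean-variance trend and 5 to 11 with each library left out, and were 13 with edgeR and with DESeq2. Over all tested genes the share at that threshold was 7.97%. It became 5.84% without the trend and 3.79% to 5.99% with each library left out. With the replicate number as a block, 22 of the 34 genes were lower and 2 higher. Over all 17640 tested genes, 2918 were then lower and 2893 higher, against 1406 and 1766 without the block. Deviations of same-numbered libraries correlated at 0.429, 0.320 and 0.066, and those of differently numbered libraries at -0.458 to 0.305. WT library 3 correlated better with hnRNPL-deficient library 2 (0.305) than with library 3. The labels give no pairing beyond the number, and whether same-numbered libraries belong together was not tested. Log2 fold changes near 0 changed sign for 4 genes that never passed. These were *Srebf1* (0.04 with equal totals, 0.05 with quantile normalization, 0.00 with TMM, and -0.18 to 0.12 without 1 library), *Mvk* (0.05 with equal totals, 0.02 with TMM, and -0.17 to 0.13 without 1 library), *Scap* (-0.01 with edgeR or without hnRNPL-deficient library 2) and *Ebp* (-0.15 to 0.02 without 1 library). Over the 34 genes and 18 alternative fits, 531 values kept their direction and side of the threshold, 50 no longer passed, 15 newly passed and 16 changed sign. The cause was not tested.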
